A study of Mus musculus with 6 samples.

Results

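The 10 genes described here are immediate early genes and subunits of the transcription factor AP-1, namely Fos, Fosl2, Jun, Junb, Jund, Egr1, Atf3, Myc, Ier2 and Klf6. They were taken by symbol from a list that was drawn up with earlier results of these data known, out of 23284 genes in the count files, and all 10 were among the 12559 genes that passed the filter on low counts. Liver RNA was sequenced from 6 C57BL/6 mice aged 8 weeks, 3 given vehicle and 3 given FGF19 at 1 mg/kg, and all 6 had been fasted through the night and remained without food over the 6 h of treatment. FGF19 is the human form of a gut hormone that mouse ileum makes as FGF15, no mouse carried a transgene or deletion, and the methods state that male mice were used. The total count per library lay between 18994654 and 22920056, and between 15170 and 15442 genes had at least 1 count. Levels are given as CPM, read counts scaled to a common library total after the TMM correction for the make-up of each library.

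Immediate early genes are switched on within minutes of a signal, from factors that are already in the cell, and their mRNAs are mostly short-lived. FGF receptors, growth factor receptors and cytokine receptors reach them through MAP kinases such as ERK and JNK, which phosphorylate ternary complex factors and AP-1 proteins. AP-1 is a dimer of basic leucine zipper proteins, usually a JUN with a FOS, a JUN or an ATF protein, and it binds the TPA response element or the cAMP response element. EGR1 is a zinc finger factor of the same early wave, and MYC dimerizes with MAX to drive growth genes. In liver these genes are known for their early rise after partial hepatectomy and in the acute phase.

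The promoters of Fos, Fosl2 and Jun are shown because they lie in AP-1 genes and hold matches to sites for the factors made by the genes under study. The sequences are from RefSeq on build GRCm38.p6, which differs from the build mm9 of the counts, and 7 of the 10 genes matched by symbol to promoters that could be printed. Each line gives the 100 bases before the annotated start, with capitals for the letters of a motif. In the Fos promoter at chr12:85473790-85473889, on the plus strand, capitals mark the core of the cAMP response element, letters TGACGT, and a TATA box, letters TATAAA. In the Fosl2 promoter at chr5:32136372-32136471, on the plus strand, they mark an EGR1 site, GCGGGGGCG. In the Jun promoter at chr4:95052223-95052322, on the minus strand, they mark TGACATCA, a variant of the TPA response element that is known from this gene.
Fos: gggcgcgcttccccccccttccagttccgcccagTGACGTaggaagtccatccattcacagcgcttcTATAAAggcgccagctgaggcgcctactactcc
Fosl2: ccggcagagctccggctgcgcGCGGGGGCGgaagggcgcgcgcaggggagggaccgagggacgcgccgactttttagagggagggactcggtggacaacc
Jun: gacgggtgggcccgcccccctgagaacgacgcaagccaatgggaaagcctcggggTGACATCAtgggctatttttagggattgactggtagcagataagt

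Both strands of 32851 promoters, each with 250 bases before and 50 after the start, were searched for these letters. The core occurred in 7.51% of them, the TATA box in 13.6%, the EGR1 site in 2.91% and the Jun variant in 3.62%. The Fos core began 66 bases before the start, the Fosl2 match 79 bases before it and the Jun match 45 bases before it. Atf3 held the core as well, and Klf6 held the Jun variant and an E-box, letters CACGTG, which occurred in 7.15% of promoters and which MYC with MAX can bind. The full cAMP response element, TGACGTCA, contains the core and was in 1.79% of promoters. The TPA response element, letters TGACTCA, was in 5.2% and the CArG box bound by serum response factor in 1.63%. None of these was found in the 7 windows. Egr1, Myc and Ier2 were not among the 7 genes, and sites more than 250 bases before the start lay outside the search. The absence of a match therefore does not show that a gene lacks the site. A match is a run of letters and not a measured binding site.

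The question here was whether FGF19 changed these genes in the fasted liver after 6 h. The change was not uniform. Myc fell in all 3 FGF19-treated mice, Fosl2 rose by about 1.59-fold, and the other genes had higher means after FGF19 without passing the adjusted threshold. The test was edgeR's quasi-likelihood test, and p-values were adjusted by the method of Benjamini and Hochberg across the 12559 genes. Below an adjusted p of 0.05, 1 of the 10 genes was higher, where 4.56% of all genes were, and 1 was lower, where 2.84% were. At the unadjusted p under 0.01 that the study's methods use, 2 were higher, Fosl2 and Egr1, where 6.2% of all genes were, and Myc alone was lower, where 4.98% were. The median log2 fold change of the 10 genes was 0.49, with 9 above 0, where all genes tested had a median of 0.00 and 49.9% above 0. With each library left out in turn, the median of the 10 genes ranged from 0.20 with 7 above 0, without FGF19 replicate 1, to 0.72 with 9 above 0, without FGF19 replicate 3. Whether a lower level reflects less mRNA per cell or fewer cells that carry it cannot be told apart in whole liver.

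**Figure D1:**
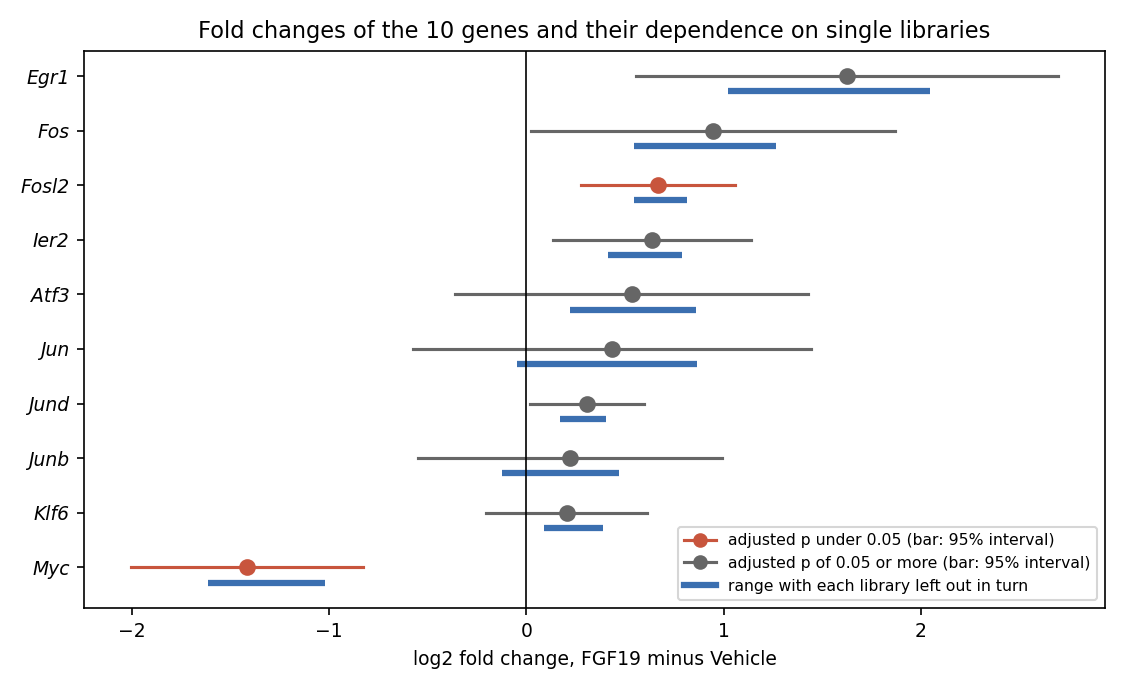
Log2 fold change of each gene, FGF19 minus Vehicle, with its 95% interval from edgeR's quasi-likelihood fit, and in blue the range of the estimate with each of the 6 libraries left out in turn. Only Fosl2 and Myc are coloured as called, and the blue bars of Jun and Junb cross 0.

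Among the FOS family genes, Fosl2 encodes FRA2, a FOS protein that lacks the strong activation domain of FOS. It lies on chromosome 5 of mm9 from 32438845 to 32460212. Its level was 6.91, 10.02 and 8.24 CPM in vehicle replicates 1, 2 and 3, and 15.5, 10.98 and 13.5 CPM in FGF19 replicates 1, 2 and 3. Every FGF19-treated mouse was above every vehicle-treated mouse, although FGF19 replicate 2 exceeded vehicle replicate 2 by little. The log2 fold change was 0.67 (standard error 0.174, 95% interval 0.28 to 1.06, adjusted p = 0.0491 in edgeR's quasi-likelihood test). This call lay close to the threshold. When each library was omitted in turn, the call was kept in 1 of 6 fits, the one without vehicle replicate 2, and the adjusted p ranged from 0.0418 to 0.182 with log2 fold changes of 0.55 to 0.81. It was kept in 3 of the 8 other alternatives, and without TMM scaling, with upper quartile scaling, a stricter filter, limma-voom or the replicate number as a block the adjusted p was between 0.0511 and 0.118.

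Fos, the first-described partner of JUN, is on chromosome 12 from 86814851 to 86818219. It was low in every library, with counts of 17, 36 and 28 reads in vehicle replicates 1, 2 and 3 and of 84, 57 and 30 reads in FGF19 replicates 1, 2 and 3. FGF19 replicates 1 and 2 were above every vehicle-treated mouse, and FGF19 replicate 3 was within the vehicle range. The vehicle mean was 1.37 ± 0.549 CPM and the FGF19 mean 2.63 ± 1.27 CPM (SD, n = 3 each). The log2 fold change of 0.95 (95% interval 0.02 to 1.87) did not pass the adjusted test (adjusted p = 0.208, edgeR's quasi-likelihood test), and without FGF19 replicate 3 it was 1.27 (adjusted p = 0.0419, same edgeR test). Without FGF19 replicate 1 the value for Fos was 0.55 (adjusted p = 0.565, same edgeR test). The exact Poisson 95% interval of the 30 reads in FGF19 replicate 3 was 20.2 to 42.8 and that of the 84 reads in FGF19 replicate 1 was 67.0 to 104. Mates of a read pair were counted separately, so that reads are not independent and these intervals, which cover counting error only, are too narrow. Of the other FOS genes, Fosb had 1 to 5 reads in each library and Fosl1 had 0 in all 6, for which a limit of 3 reads, again with reads taken as independent, is 0.131 to 0.158 CPM depending on the library.

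The JUN family genes are each a single exon here. Jun, on chromosome 4 from 94715727 to 94718913, encodes the JNK substrate after which the family is named. Its level was 28.5, 32.3 and 49.8 CPM in vehicle replicates 1, 2 and 3, and 78.4, 55.5 and 15.9 CPM in FGF19 replicates 1, 2 and 3. The FGF19 group thus held both the highest and the lowest of the 6 values, which differed 4.94-fold. Jun had a log2 fold change of 0.44 (95% interval -0.57 to 1.44, adjusted p = 0.624 in edgeR's quasi-likelihood test). Without FGF19 replicate 3 it was 0.86 (adjusted p = 0.0406 in the same edgeR test), and without FGF19 replicate 1 it was -0.05.

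Junb, which opposes JUN at many promoters, lies on chromosome 8 from 87500808 to 87502647. It was at 19.2, 50.9 and 54.6 CPM with vehicle and at 63.5, 46.96 and 34.7 CPM with FGF19, in replicate order. The groups overlapped, and vehicle replicate 1 was the lowest library. For Junb the log2 fold change was 0.22 (95% interval -0.55 to 0.99, adjusted p = 0.758 in edgeR's quasi-likelihood test). It changed sign without vehicle replicate 1, to -0.12, and without FGF19 replicate 1, to -0.02.

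Jund, the JUN gene known for steady expression in resting cells, lies on chromosome 8 from 73221638 to 73224515. Its level was 87.6, 107.2 and 106.0 CPM with vehicle and 146, 118 and 107.7 CPM with FGF19, in replicate order. Every FGF19-treated mouse was above every vehicle-treated mouse, but FGF19 replicate 3 by under 1 CPM. Its log2 fold change of 0.31 (standard error 0.129, 95% interval 0.02 to 0.60) did not pass the adjusted test (adjusted p = 0.195, edgeR's quasi-likelihood test). The value for Jund was 0.17 without FGF19 replicate 1 and 0.40 without FGF19 replicate 3 (adjusted p = 0.541 and 0.0562, same edgeR test). Jund was the JUN gene with the least spread between mice, with a biological coefficient of variation of 12.4% against 38.0% for Jun and 29.4% for Junb, where the median gene tested had 11.9%.

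**Figure D2:**
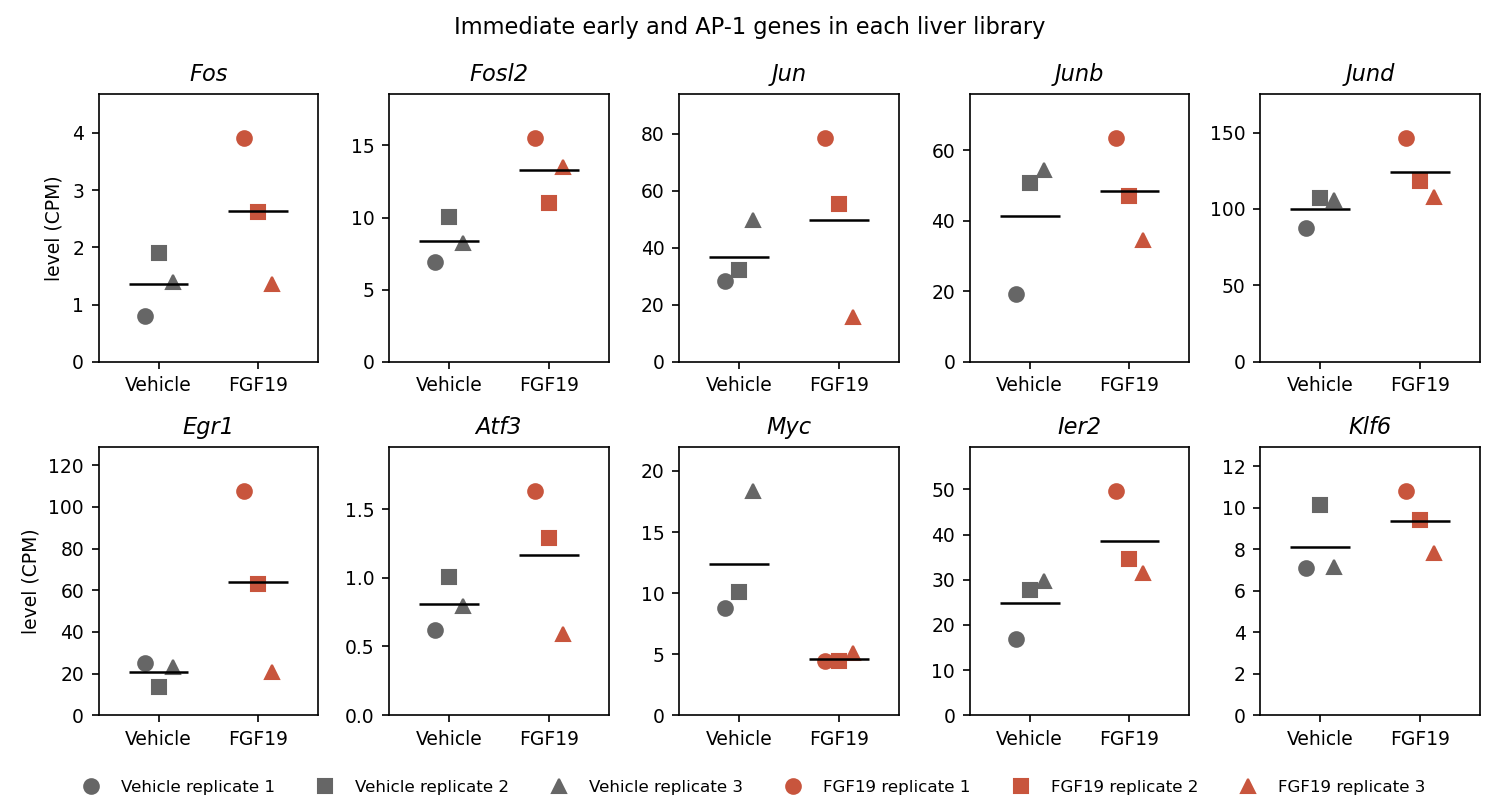
Level in CPM of each of the 10 genes in each library, with vehicle in grey and FGF19 in red, one symbol shape per replicate number and a bar at the group mean. Each panel has its own axis from 0. FGF19 replicate 1 is the highest library in 9 panels, and in Myc the 3 FGF19 libraries sit between 4.41 and 5.07, below the vehicle libraries.

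Of the 10 genes, Egr1 had the largest fold difference in mean. It lies on chromosome 18 from 35020861 to 35024610 and is a direct target of ERK signalling. It was at 25.2, 13.5 and 23.2 CPM in vehicle replicates 1, 2 and 3, and at 107.4, 62.95 and 20.9 CPM in FGF19 replicates 1, 2 and 3. FGF19 replicates 1 and 2 were at 5.21 and 3.06 times the vehicle mean, and FGF19 replicate 3 at 1.01 times. For Egr1 the log2 fold change was 1.63 (standard error 0.478, 95% interval 0.55 to 2.70). In edgeR's quasi-likelihood test the unadjusted threshold was passed and the adjusted one was not (adjusted p = 0.0749). Without FGF19 replicate 3 the log2 fold change was 2.05 (adjusted p = 0.00302), and without FGF19 replicate 1 it was 1.02 (adjusted p = 0.238, same edgeR test).

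Ier2, an early gene of growth factor stimulation on chromosome 8 from 87185230 to 87186751, was at 16.9, 27.8 and 29.8 CPM with vehicle and at 49.5, 34.6 and 31.6 CPM with FGF19, in replicate order. The groups did not overlap. Ier2 had a log2 fold change of 0.64 (standard error 0.224, 95% interval 0.13 to 1.14), and with an adjusted p of 0.124 in edgeR's quasi-likelihood test it was not called. DESeq2 called it, with an adjusted p of 0.0424, and this was 1 call in 14 alternatives. Without FGF19 replicate 1 the log2 fold change of Ier2 was 0.41 (adjusted p = 0.364 in edgeR's quasi-likelihood test). Klf6, a Krüppel-like zinc finger gene on chromosome 13 from 5860735 to 5869639, showed the smallest difference, with vehicle values of 7.10, 10.12 and 7.15 CPM and FGF19 values of 10.8, 9.42 and 7.83 CPM. The groups overlapped (log2 fold change 0.20, 95% interval -0.20 to 0.61, adjusted p = 0.560 in edgeR's quasi-likelihood test). The value for Klf6 was 0.089 without FGF19 replicate 1 and 0.39 without vehicle replicate 2.

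Atf3, a stress-induced member of the ATF family that can pair with JUN, lies on chromosome 1 from 192994176 to 193007212 and was the lowest of the 10 genes. It had 13, 19 and 16 reads in vehicle replicates 1, 2 and 3 and 35, 28 and 13 reads in FGF19 replicates 1, 2 and 3. FGF19 replicates 1 and 2 were above the vehicle range and FGF19 replicate 3 was below it in CPM. Atf3 had a log2 fold change of 0.53 (95% interval -0.36 to 1.43, adjusted p = 0.478 in edgeR's quasi-likelihood test), so that a difference was not detectable at this depth and spread. Without FGF19 replicate 1 it was 0.22 and without FGF19 replicate 3 it was 0.86 (adjusted p = 0.861 and 0.109 in the same edgeR test).

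Myc was the gene that went the other way. It lies on chromosome 15 from 61816896 to 61821916. Its level was 8.82, 10.07 and 18.3 CPM in vehicle replicates 1, 2 and 3, and 4.42, 4.41 and 5.07 CPM in FGF19 replicates 1, 2 and 3. The 3 FGF19-treated mice lay close together and below every vehicle-treated mouse, while vehicle replicate 3 was well above the other vehicle mice. The vehicle mean was 12.4 ± 5.16 CPM and the FGF19 mean 4.63 ± 0.378 CPM (SD, n = 3 each), and the fitted level was 2.67 times higher with vehicle. The log2 fold change was -1.42 (standard error 0.262, 95% interval -2.01 to -0.83, adjusted p = 0.0128 in edgeR's quasi-likelihood test). Without vehicle replicate 3 it was -1.02 (adjusted p = 0.0172), and the adjusted p passed 0.05 by little without FGF19 replicate 1 (0.0501) and without FGF19 replicate 2 (0.0534), all in the same edgeR test.

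The count of genes whose groups did not overlap was 3 for higher genes, Fosl2, Jund and Ier2, where 14.5% of all genes tested were higher without overlap. It was 1 for lower genes, Myc, where 13.8% were. In the other 6 genes the groups overlapped, in Fos, Jun, Egr1 and Atf3 through FGF19 replicate 3 alone and in Junb through FGF19 replicates 2 and 3. In Klf6 FGF19 replicates 2 and 3 were below vehicle replicate 2 alone and above the other vehicle-treated mice.

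Single mice stood out across the genes. FGF19 replicate 1 was the highest of the 6 libraries in 9 of the 10 genes, all except Myc, where it was the highest in 15.2% of all genes tested. FGF19 replicate 2 was above every vehicle-treated mouse in 7 genes, where it was so in 33.6% of all genes tested, and FGF19 replicate 3 in 3 genes, where it was so in 32.1%. In Jun, Atf3 and Myc, FGF19 replicate 3 was below every vehicle-treated mouse, as it was in 32.8% of all genes tested, so that both counts for this mouse are near the background. Vehicle replicate 1 was the lowest library in 6 genes, Fos, Fosl2, Junb, Jund, Ier2 and Klf6, where it was the lowest in 17.4% of all genes tested. Since these genes are known to vary together, they are not separate observations of a mouse.

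**Figure D3:**
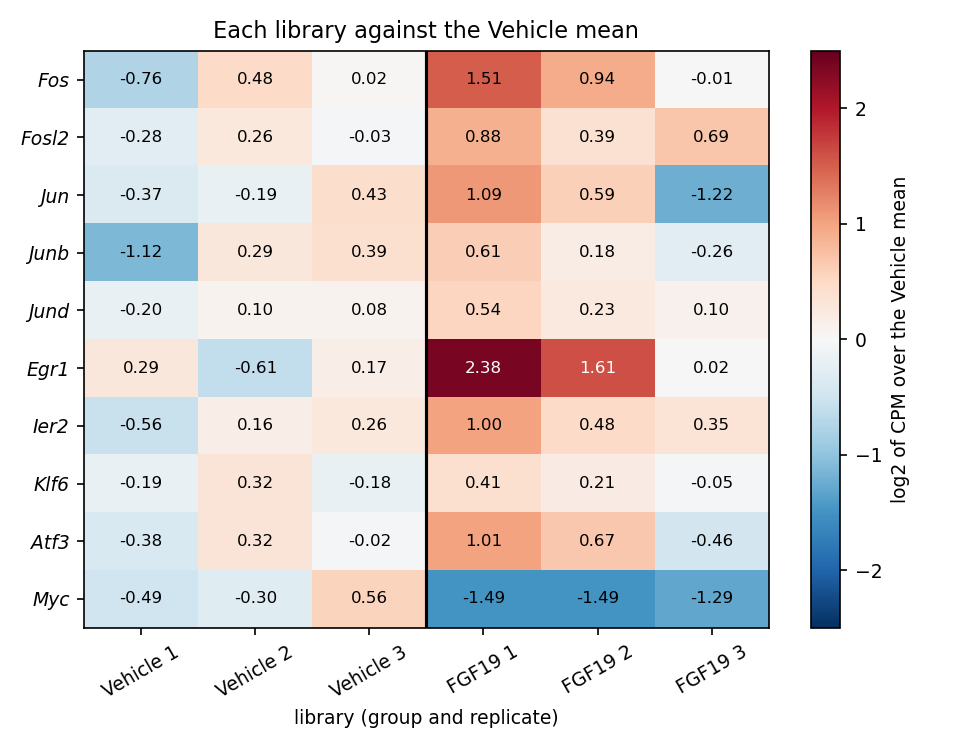
Each cell gives the log2 of the CPM in 1 library over the mean CPM of the 3 vehicle libraries, for the 10 genes (rows) and the 6 libraries (columns, vehicle left of the line). FGF19 replicate 1 is above the vehicle mean in every gene but Myc, and FGF19 replicate 3 ranges from 0.409 times the vehicle mean in Myc and 0.431 times in Jun to 1.61 times in Fosl2.

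The spread between mice was wide for most of the 10 genes. The biological coefficient of variation from the edgeR fit was 39.0% for Egr1, higher than in 99.6% of the genes tested, and 38.0% for Jun, higher than in 99.5%. Fos followed at 31.8%, Junb at 29.4%, Atf3 at 26.0% and Myc at 21.6%, so that 6 of the 10 were above 90% of genes. Ier2 was at 19.5%, Klf6 at 15.3%, Fosl2 at 14.9% and Jund at 12.4%. Within the FGF19 group the highest library was 5.15 times the lowest for Egr1 and 1.15 times for Myc. Within the vehicle group the same ratio was largest for Junb, 2.85, and smallest for Jund, 1.22.

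Levels were compared between genes per kilobase of exon. In vehicle-treated mice the order of the mean levels in CPM per kb was Jund (34.8), Junb (22.6), Ier2 (16.3), Jun (11.6), Egr1 (6.71), Myc (5.17), Klf6 (1.93), Fosl2 (1.43), Fos (0.654) and Atf3 (0.408). Jund was thus above 87.1% of the genes tested and Atf3 above 9.14%. The ranges of the 3 mice overlapped between neighbours in this order for Junb and Ier2, Ier2 and Jun, Egr1 and Myc, Klf6 and Fosl2, and Fos and Atf3. They did not overlap between Jund and Junb, Jun and Egr1, Myc and Klf6, or Fosl2 and Fos. In FGF19-treated mice Egr1 was in place 4 with a mean of 20.8 CPM per kb, and Myc was in place 8 with 1.93 CPM per kb.

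**Figure D4:**
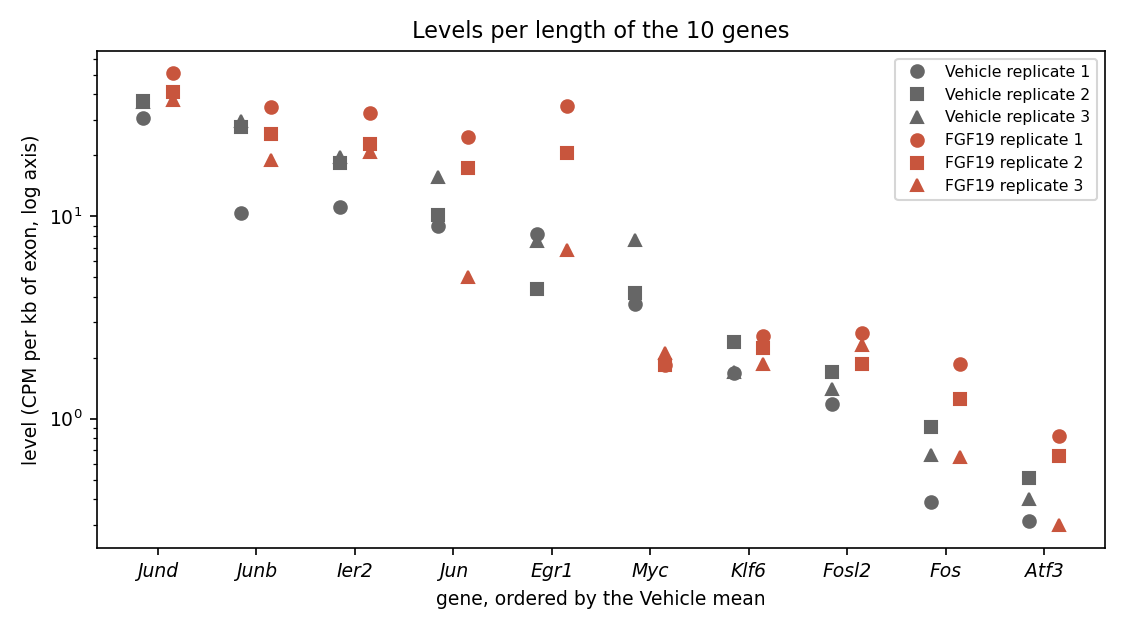
Level of each gene in CPM per kilobase of exon on a log axis, with 1 point per library, vehicle in grey and FGF19 in red, ordered by the vehicle mean. The JUN genes lie above the FOS genes in both groups, and Jund is the highest on average at 34.8 CPM per kb with vehicle.

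JUN transcripts outnumbered FOS transcripts in every library. The summed level of Jun, Junb and Jund was 49.8, 75.04 and 82.1 CPM per kb in vehicle replicates 1, 2 and 3, and 109.9, 83.9 and 61.3 CPM per kb in FGF19 replicates 1, 2 and 3. The summed level of Fos, Fosb, Fosl1 and Fosl2 was 1.63, 2.68 and 2.14 CPM per kb with vehicle and 4.53, 3.14 and 2.99 CPM per kb with FGF19, in replicate order. The FOS sums of the FGF19-treated mice were all above those of the vehicle-treated mice, and the JUN sums overlapped. The ratio of JUN to FOS was 30.6, 28.0 and 38.5 with vehicle and 24.2, 26.8 and 20.5 with FGF19, so that the groups did not overlap there either. These sums were made after the values of the genes were seen and were not tested. Jund made up 51.9 ± 8.35% (SD, n = 3) of the JUN sum with vehicle and 52.1 ± 7.92% (SD, n = 3) with FGF19, and Fosl2 made up 67.3 ± 4.46% and 65.0 ± 10.5% (SD, n = 3 each) of the FOS sum.

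Related genes were examined as lists, described by counts and medians beside the background of all genes given above. Of 16 other AP-1 subunits and related basic leucine zipper genes, 12 were tested, with a median log2 fold change of 0.09, and Maff alone was called. Maff, which encodes a small MAF protein without an activation domain, was at 2.38, 2.28 and 2.58 CPM with vehicle and 5.68, 5.70 and 3.98 CPM with FGF19. Every FGF19-treated mouse was above the vehicle range (log2 fold change 1.08, adjusted p = 0.0114 in edgeR's quasi-likelihood test). Without FGF19 replicate 1 or 2 its adjusted p was 0.0523 or 0.0513 in that test.

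Of 40 other immediate early genes, 36 were tested, 24 of them with a higher mean, and the median log2 fold change was 0.17. Trib1, Btg2 and Nr4a1 were called higher and 0 were called lower, while 1 gene, Zfp36, was lower below an unadjusted p of 0.01 in edgeR's quasi-likelihood test and up to 2 genes were lower at the adjusted threshold with other tools, scalings or filters. Trib1, a pseudokinase gene, was at 54.7, 50.9 and 44.1 CPM with vehicle and 84.7, 88.7 and 73.4 CPM with FGF19 (log2 fold change 0.72, adjusted p = 0.00497 in the same edgeR test). It was called in each of the 14 alternatives. Btg2, an antiproliferative early gene, was at 7.67, 18.4 and 19.2 CPM with vehicle and 57.6, 40.2 and 27.2 CPM with FGF19. Nr4a1, an orphan nuclear receptor gene, was at 1.67, 1.70 and 1.54 CPM with vehicle and 7.95, 3.54 and 2.58 CPM with FGF19. In Btg2 and Nr4a1 FGF19 replicate 1 was again the highest library and FGF19 replicate 3 the lowest of its group, and both genes kept the call in only 1 of 6 fits with a library left out, the fit without FGF19 replicate 3. Over all 36 genes, FGF19 replicate 1 was the highest library in 9 and vehicle replicate 3 in 10. The called genes of this list numbered from 1, without vehicle replicate 1, to 6, without FGF19 replicate 3.

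Of 25 MAP kinases and transcription factors that act upstream, all were tested, with a median log2 fold change of 0.03. Srf, the serum response factor that binds the CArG box, was at 17.3, 16.1 and 14.3 CPM with vehicle and 22.9, 21.9 and 21.4 CPM with FGF19 (log2 fold change 0.47, adjusted p = 0.0279 in edgeR's quasi-likelihood test). Rps6ka1, which encodes an ERK-activated kinase, was at 18.1, 17.6 and 18.8 CPM with vehicle and 22.98, 24.1 and 22.95 CPM with FGF19 (log2 fold change 0.36, adjusted p = 0.0458 in the same edgeR test). These were the called genes of this list, both higher in 3 of 3 FGF19-treated mice, and the list held from 0, without vehicle replicate 2, to 3, without FGF19 replicate 3.

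Feedback inhibitors of MAP kinase signalling had the highest median of the related lists. Of 17 genes 15 were tested, with a median log2 fold change of 0.60, and 4 were called higher and 1 lower. Spry4, a Sprouty inhibitor induced by FGF signalling, was at 3.91, 4.93 and 5.91 CPM with vehicle and 13.1, 14.02 and 15.6 CPM with FGF19 (log2 fold change 1.53, adjusted p = 0.000861 in edgeR's quasi-likelihood test). Dusp6, the ERK phosphatase, was at 19.5, 13.8 and 14.7 CPM with vehicle and 26.1, 29.4 and 28.4 CPM with FGF19 (log2 fold change 0.80, adjusted p = 0.00878 in the same edgeR test). In both genes FGF19 replicate 3 stood with the other FGF19-treated mice. Dusp8, a phosphatase of JNK and p38, was at 0.858, 0.795 and 0.248 CPM with vehicle and 4.74, 2.76 and 1.72 CPM with FGF19, so that replicate 1 was the highest and replicate 3 the lowest of the FGF19 group, as in Egr1. Dusp8 and the related phosphatase gene Dusp10 were higher, with log2 fold changes of 2.27 and 0.66, and Spry1 was lower, with -0.79 (adjusted p = 0.0209, 0.0402 and 0.0291 in the same edgeR test). The higher genes of this list numbered 1 without vehicle replicate 3 and 5 without FGF19 replicate 3. The call of Spry1 was kept in 2 of the 6 fits with a library left out, those without vehicle replicate 1 or FGF19 replicate 3 (adjusted p up to 0.115 in the same edgeR test).

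**Figure D5:**
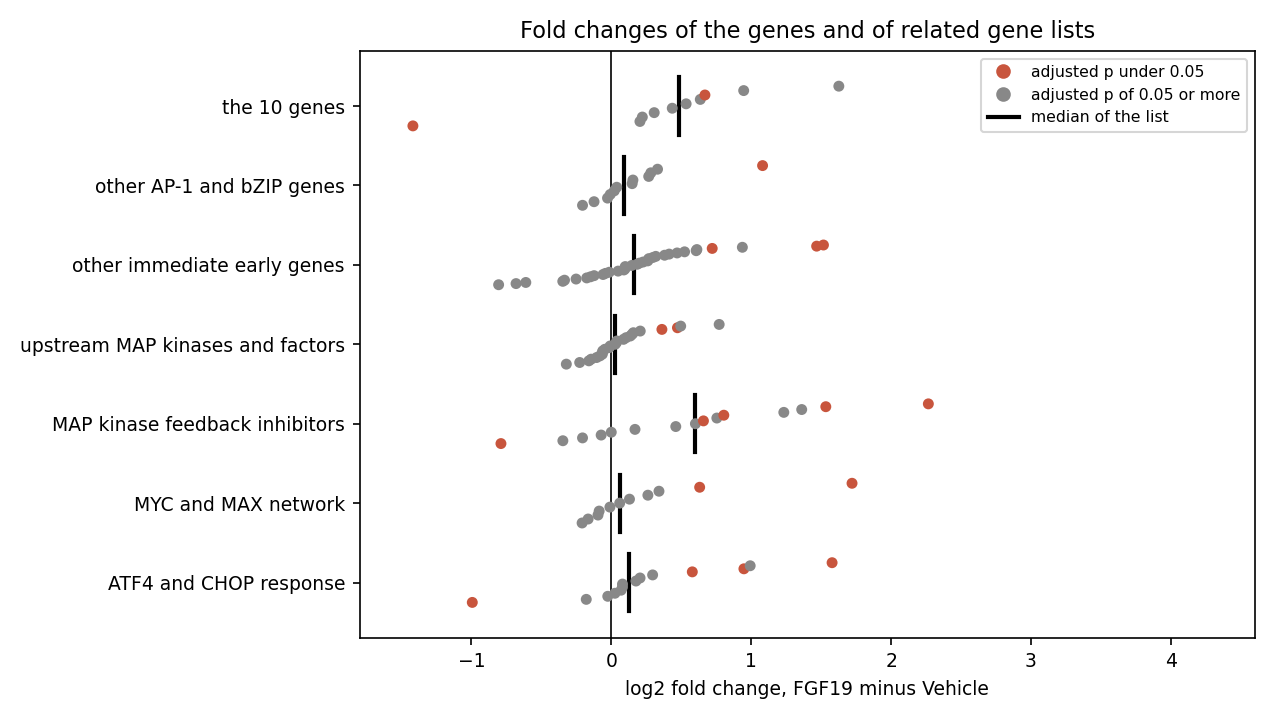
Log2 fold change, FGF19 minus Vehicle, of each tested gene of the 10 genes and of the related lists, with called genes in red and a bar at each list's median. The median is 0.49 for the 10 genes, 0.20 without FGF19 replicate 1, and 0.60 for the feedback inhibitors, and genes on both sides of 0 are seen in every list.

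In the network of MYC and its partner MAX, 11 of 12 genes were tested, with a median log2 fold change of 0.06. The other MYC genes went opposite to Myc. Mycn was at 0.524, 0.477 and 0.447 CPM with vehicle and 1.49, 1.61 and 1.72 CPM with FGF19 (log2 fold change 1.72, adjusted p = 0.00605 in edgeR's quasi-likelihood test). Mycl1 was at 12.3, 11.8 and 11.7 CPM with vehicle and 21.9, 17.6 and 15.9 CPM with FGF19 (log2 fold change 0.63, adjusted p = 0.0227 in the same edgeR test). Both were higher in 3 of 3 FGF19-treated mice. Mycn kept its call with any library left out, and Mycl1 kept it in 1 of these 6 fits, the one without FGF19 replicate 3 (adjusted p up to 0.102 in the same edgeR test). The called genes of this list numbered 1 without vehicle replicate 1 and 3 without FGF19 replicate 3. With all 6 libraries, no tested gene of MAX, MXD, MNT, MGA or MLX type was called by this edgeR test.

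Atf3 is a target of ATF4 and CHOP in the stress response, and 14 of 15 genes of that response were tested, with a median log2 fold change of 0.13. Nupr1, Asns and Sesn2 rose, with log2 fold changes of 1.58, 0.95 and 0.58, and Vldlr fell by 0.99 on the log2 scale (adjusted p = 0.0164, 0.0286, 0.0307 and 0.0141 in edgeR's quasi-likelihood test). Nupr1 encodes a stress-induced chromatin protein, Asns encodes asparagine synthetase, Sesn2 a leucine sensor, and Vldlr a lipoprotein receptor. Atf4 and Ddit3, which encodes CHOP, had log2 fold changes of 0.21 and 0.30 and were not called (adjusted p = 0.251 and 0.231 in the same edgeR test). The number of higher genes was 0 without vehicle replicate 1 and 4 without FGF19 replicate 3. The call of Vldlr was lost without vehicle replicate 3 (adjusted p = 0.0742) and without FGF19 replicate 2 (adjusted p = 0.0638, same edgeR test).

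Markers of other liver cells were read beside these genes. The labelled tissue was checked with 9 hepatocyte markers, none of them at 0, whose summed level was 112427 to 118322 CPM with vehicle and 103425 to 114384 CPM with FGF19, most of it Alb. Of these markers 7 were lower in mean with FGF19, of which Cyp2e1, Hnf4a and Cps1 were lower without overlap (log2 fold change -0.39, -0.31 and -0.35), and 0 were called at the adjusted threshold in edgeR's quasi-likelihood test, with 3 lower at an unadjusted p under 0.05, where 11.3% of all genes were lower. The 12 Kupffer cell and macrophage markers summed to 338 to 403 CPM with vehicle and 327 to 403 CPM with FGF19, with 6 of the 12 higher in mean and a median log2 fold change of 0.00. Marco and Cd68 were called higher (log2 fold change 2.29 and 0.66), and Vsig4 was lower in every FGF19-treated mouse without being called (-0.54, adjusted p = 0.0755 in edgeR's quasi-likelihood test). The 9 monocyte and neutrophil markers summed to 3.81 to 4.82 CPM with vehicle and 7.88 to 11.99 CPM with FGF19, without overlap. That sum was 9.21, 11.99 and 7.88 CPM in FGF19 replicates 1, 2 and 3. Only 4 of the 9 passed the filter on low counts, all 4 with a higher mean. S100a9 was called higher (log2 fold change 2.16), with 5, 4 and 21 reads in vehicle replicates 1, 2 and 3. Ccr2 (1.03) and Csf3r (0.82) were higher without overlap and not called (adjusted p = 0.0537 and 0.0773 in edgeR's quasi-likelihood test). Sums of endothelial, stellate, cholangiocyte and lymphocyte markers overlapped between the groups. Of 8 endothelial markers 3 were higher in mean, with Cdh5 called higher (log2 fold change 0.43, adjusted p = 0.0275) and Clec4g lower without overlap and not called (-0.38, adjusted p = 0.0736, same edgeR test). Of 8 stellate cell markers 4 were higher in mean, and Colec11 was called lower (-0.75, adjusted p = 0.00878, same edgeR test). Of 6 erythroid markers, the 4 haemoglobin genes were listed at 0 in all 6 libraries and Slc4a1 had 0 to 11 reads. The listed positions of Hbb-b1 and Hbb-b2 overlap, as do those of Hba-a1 and Hba-a2. Whether this or a lack of transcripts gave the counts of 0 was not tested. Alas2 was at 77.1, 78.6 and 57.2 CPM with vehicle and 48.1, 43.6 and 57.5 CPM with FGF19, with overlap. The part of these markers in the results was not tested.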

How the data were processed

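Liver RNA of 6 mice was measured by paired-end RNA-seq, 1 library per mouse. The authors trimmed reads with Trimmomatic 0.36, aligned them with STAR (2.5.3a in the processing notes) and counted them on exons of mm9 genes with featureCounts 1.5.2. Deposited counts are raw and not normalized, and per the file headers strand was not used and mates were counted separately. No exon of the 10 genes overlaps that of another listed gene. The authors' table of their own comparison (fold changes, mean expression and p-values) was not used.

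The computation used edgeR 4.0.16 (R 4.3.3) with filterByExpr, TMM scaling and the quasi-likelihood test of FGF19 against vehicle without covariates, on 12559 genes with Benjamini-Hochberg adjustment. The fit was tested on simulated counts in which all genes had the same spread between samples. That test does not cover genes with a wider spread, such as Egr1, Jun and Fos. Labels number the mice but do not say what links them, so p-values measure the spread between these 6 samples. The members and lists were chosen with earlier results of these data known. All 10 members are named, and from each related list up to 6 genes with an adjusted p under 0.05. Profile neighbours are the 3 genes with a mean of at least 1 CPM nearest to Fos, Egr1, Atf3 or Myc. The 14 alternatives were DESeq2 1.42.0, no TMM, upper quartile scaling, no filter, a minimum of 1 CPM per library, edgeR's likelihood ratio test, limma-voom (limma 3.58.1), the replicate number as a block, and each library left out in turn.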

Additional observations from a re-analysis of the deposited data

How the results depend on the processing

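The lower level of Myc kept its direction in each of the 14 alternatives (log2 fold change -1.62 to -1.02) and its call in 12, all except the fits without FGF19 replicate 1 or 2, so that with each library left out in turn between 0 and 1 gene was called lower. At the adjusted threshold, the count of higher genes was 2 with DESeq2 (Fosl2 and Ier2), 2 with no filter and 2 with the likelihood ratio test (Fosl2 and Egr1 in both), and 0 with no TMM scaling, 0 with upper quartile scaling, 0 with at least 1 CPM in every library, 0 with limma-voom and 0 with the replicate number as a block, where the adjusted p of Fosl2 was 0.0521, 0.0525, 0.0511, 0.0516 and 0.118. With each library left out it was 0 to 3, and 3 (Fos, Jun and Egr1) without FGF19 replicate 3. At an unadjusted p under 0.01 the count of higher genes was 1 with no TMM scaling and 1 with limma-voom (Fosl2 in both), 3 with no filter and 3 with the likelihood ratio test (Fosl2, Egr1 and Ier2 in both), 2 with DESeq2 (Fosl2 and Ier2, without Egr1), and 0 to 5 with each library left out, with 5 without FGF19 replicate 3. The sign changed for Jun without FGF19 replicate 1 (-0.049, against up to 0.86 without FGF19 replicate 3) and for Junb without vehicle replicate 1 (-0.12) and FGF19 replicate 1 (-0.022, against up to 0.47 without vehicle replicate 3). For the other genes it was kept in every alternative run. Other scalings moved the median of all genes by at most 0.01 on the log2 scale. Same-numbered mice did not deviate together (r = -0.03, -0.18 and -0.18 across genes for numbers 1, 2 and 3). With 3 mice per group these values cannot exclude a link between same-numbered samples, which the labels do not describe. The fold changes of the 17 called genes of the related lists kept their sign in each alternative, with 63 calls lost over all of them. Low counts limit Fos and Atf3, and 3 mice per group limit all 10 genes. Low counts also limit called genes of the related lists. In vehicle replicates 1, 2 and 3, Mycn had 11, 9 and 9 reads, Dusp8 18, 15 and 5, and Nupr1 11, 17 and 14. The cause of these differences was not tested.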

Other observations

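The genes whose profiles over the 6 libraries lay nearest to those of 4 of the early genes were listed, with the root mean square distance of mean-centred log2 CPM as the measure, out of 11659 genes. They were picked for this nearness, so that a pattern shared with the early gene follows from the selection. For Myc they were Serpinb1a, a protease inhibitor gene (distance 0.197), Slco1a4, an organic anion transporter gene (0.247), and 1700040L02Rik (0.271). Serpinb1a was at 5.004, 7.10 and 9.18 CPM in vehicle replicates 1, 2 and 3 and at 2.70, 2.34 and 2.31 CPM in FGF19 replicates 1, 2 and 3, and like Myc it was highest in vehicle replicate 3. Slco1a4 was at 136.5, 116.6 and 178 CPM with vehicle and at 63.4, 65.8 and 55.3 CPM with FGF19.

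For Egr1 the nearest genes were Fgf21, a fasting hormone gene of the liver (0.429), Fst, which encodes follistatin (0.443), and Dhrs9 (0.456). Fgf21 was at 7.96, 5.72 and 5.76 CPM with vehicle and at 19.2, 16.5 and 8.38 CPM with FGF19, and Fst at 4.86, 3.07 and 6.55 CPM with vehicle and at 27.4, 15.9 and 10.9 CPM with FGF19. In both genes FGF19 replicate 1 was the highest and FGF19 replicate 3 the lowest of its group, as in Egr1 by the way they were picked. Dhrs9 was at 0.715, 0.583 and 1.19 CPM with vehicle and at 2.23, 2.39 and 0.543 CPM with FGF19, with FGF19 replicate 2 the highest. For Fos the nearest were Galnt7 (0.222), Rnf125 (0.229) and Mpzl1 (0.230), and for Atf3 Sorl1 (0.0961), Ptpn22 (0.115) and Atp8a1 (0.128). A prior count of 2 was added to each value, which brings low genes closer together.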
